A study of Mus musculus with 8 samples.

Results

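Expression of lysosomal genes was examined in macrophages grown from mouse bone marrow. The set held 43 genes listed by symbol for their function, and all 43 were found among the 13384 genes present in both deposited tables. They fell into 4 classes. The luminal class had 23 genes for soluble proteins of the lysosome, most of them hydrolases, with the lipid-binding Npc2, the saposin precursor Psap and progranulin (Grn) placed beside them. The membrane class had 6 genes, the proton pump (V-ATPase) class had 11, and the TFEB family of transcription factors had 3.

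Macrophages labelled NIK KO, which lack NF-κB-inducing kinase (NIK) by their label, were set against macrophages labelled WT, with IL-4 and with PBS. This gave 8 RNA libraries in 4 groups of 2, which were NIK KO with IL-4, WT with IL-4, NIK KO with PBS and WT with PBS. All 4 mice were female and 12 weeks old, and each mouse gave 1 library for IL-4 and 1 for PBS. Marrow cells had grown for 7 days in medium with 30% supernatant of L929 cells, a fibroblast line that secretes the macrophage growth factor M-CSF, and had been replated in 5% before they received IL-4 (20 ng/mL) or PBS for 6 hours. IL-4 drives macrophages into alternative activation, and NIK sits at the head of the noncanonical NF-κB pathway. The sources used here do not give the allele of the knockout or the cells in which it acts.

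The authors' results tables, 1 per treatment, covered 14193 genes with IL-4 and 13676 with PBS and held 1 value per gene and comparison. The level in a single mouse and the depth of a library are therefore unknown, and it cannot be seen whether the mice of a pair of groups overlap. Group means of normalized counts were recovered from the deposited base mean and fold change. Fold changes are on the log2 scale, labelled NIK KO over labelled WT, with the standard error (SE) of the authors' fit to 2 mice a side. Map3k14, the gene of NIK (ENSMUSG00000020941), had a mean of 832 in libraries labelled NIK KO against 418 in those labelled WT with IL-4, and 902 against 425 with PBS. The authors' deposited tables give its log2 fold change as 0.99 ± 0.22 with IL-4 (DESeq2 adjusted p = 0.00782) and 1.09 ± 0.28 with PBS (adjusted p = 0.176). A higher count of Map3k14 is at odds with a plain reading of the knockout label. The allele is not given, a count over the whole gene does not show whether NIK is made, and the cause was not tested. If the tables ran the other way round, every sign below would turn. All 8 macrophage markers of the marker list were present in both tables. Their summed mean was 484254 in libraries labelled NIK KO against 507272 in those labelled WT with IL-4, and 636224 against 621595 with PBS. The sum with IL-4 was lower through Lyz2, at 318214 against 370074, and the other 7 markers summed to 166039 against 137198. Of them Adgre1 was at 43143 against 29592 (0.54 ± 0.18 in the authors' deposited table, DESeq2 p = 0.00320). Of the fibroblast markers, 9 of 9 were listed with IL-4, at a summed mean of 288 against 701, and 8 of 9 with PBS, at 163 against 203. Of the erythroid markers, 5 of 7 were listed in each table, at 154 against 341 with IL-4 and 103 against 96.1 with PBS. With IL-4, 1 fibroblast marker had a DESeq2 adjusted p under 0.05, as did 0.125% of all genes tested. An unadjusted p under 0.05 was held there by 5 fibroblast and 4 erythroid markers, beside 2.95% of all genes, and by 0 of either with PBS. The neutrophil markers listed summed to 173 against 242 with IL-4 and 203 against 224 with PBS. Those of B cells summed to 18.0 against 44.5 and 7.42 against 7.11. The 5 dendritic cell markers summed to 1791 against 1849 with IL-4 and 318 against 325 with PBS. Of the osteoclast markers, 5 of 6 were listed in each table, at 999 against 1162 with IL-4 and 915 against 979 with PBS. None of the 4 T-cell markers was listed. The part of these other cells in the lysosomal values was not tested.

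Lysosomes break down what macrophages engulf as well as the cell's own worn parts. The V-ATPase acidifies their lumen: its V1 sector splits ATP on the cytosolic side and drives a rotor that carries protons through the V0 sector in the membrane, and the acid pH keeps the hydrolases active. TFEB, TFE3 and MITF are related factors that bind E-box motifs near the starts of many lysosomal genes, and mTORC1 at the lysosomal surface holds TFEB in the cytosol when nutrients are plentiful.

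The promoters were read first, since E-box motifs are a feature that hydrolase, membrane and pump genes can share besides their function. RefSeq promoter windows of build GRCm38.p6 running from 250 bases before to 50 bases after each transcription start were searched for CACGTG, for its 8-base form TCACGTGA and for a 10-base form in which G precedes and C follows those 8 bases. Each motif equals its reverse complement, so both strands were searched, and each shorter motif lies within the longer. The table held windows for 36 of the 43 genes, and Asah1, Atp6v1b2, Atp6v1c1, Atp6v1h, Ctsb, Ctsh and Npc1 had none. CACGTG stood in a window of 14 of the 36 genes (38.9%), against 8.09% of the 27025 genes of the table and 12.7% of the 2268 that had a base mean of 1000 or more in both tables. TCACGTGA stood in 7 of the 36 (19.4%), against 1.12% and 2.82%. The 10-base form stood in 1, Cln3 (2.78%), against 0.370% and 1.28%. By class, CACGTG was found for 8 of 20 luminal genes, 3 of 5 membrane genes, 3 of 8 pump genes and 0 of 3 genes of the TFEB family. A match describes the letters only and is not a measured site of binding. The 9 sites with the 8-base motif are shown because they hold the longer form of the motif, with CACGTG in capitals, 14 bases on either side, and each written 5′ to 3′ on the strand of the gene.
Ctsa upstream: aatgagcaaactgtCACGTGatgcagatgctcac
Ctsa downstream: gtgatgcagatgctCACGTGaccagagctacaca
Ctsd: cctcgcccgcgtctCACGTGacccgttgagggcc
Gla upstream: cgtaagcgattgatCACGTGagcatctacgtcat
Gla downstream: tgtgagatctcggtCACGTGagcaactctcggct
Cln3: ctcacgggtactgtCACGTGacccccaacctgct
Mcoln1: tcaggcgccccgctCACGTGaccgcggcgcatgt
Atp6v0d1: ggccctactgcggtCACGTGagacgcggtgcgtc
Atp6v1a: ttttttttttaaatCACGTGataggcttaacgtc

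In build GRCm38.p6 these sites lie at chr2:164833747-164833780 and chr2:164833764-164833797 on the plus strand for Ctsa, whose product protects β-galactosidase and sialidase, and at chr7:142387906-142387939 on the minus strand for Ctsd, the aspartic protease cathepsin D. Those of Gla, α-galactosidase A, lie at chrX:134601213-134601246 and chrX:134601180-134601213 on the minus strand. For the membrane genes Cln3 and Mcoln1 the sites are at chr7:126583338-126583371 on the minus strand and chr8:3500460-3500493 on the plus strand. For the pump genes Atp6v0d1 and Atp6v1a they are at chr8:105566048-105566081 and chr16:44139371-44139404, both on the minus strand. In Ctsa the 2 motifs flank the annotated start, beginning 12 bases before it and at base 6 after it, and in Atp6v0d1 the motif spans the start. Lamp1, the gene of an abundant lysosomal membrane protein, held 4 copies of CACGTG, the most of any gene of the set, and none was part of the 8-base motif. Its copies begin 61, 45, 28 and 15 bases before the start, and the 250 bases before it (chr8:13158911-13159160, plus strand) are shown to give their spacing, with each CACGTG in capitals.
Lamp1 promoter: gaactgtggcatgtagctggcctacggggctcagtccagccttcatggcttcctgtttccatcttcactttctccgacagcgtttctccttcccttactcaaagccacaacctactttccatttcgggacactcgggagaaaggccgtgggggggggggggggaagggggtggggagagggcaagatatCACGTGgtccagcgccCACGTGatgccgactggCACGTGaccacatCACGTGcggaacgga

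**Figure D1:**
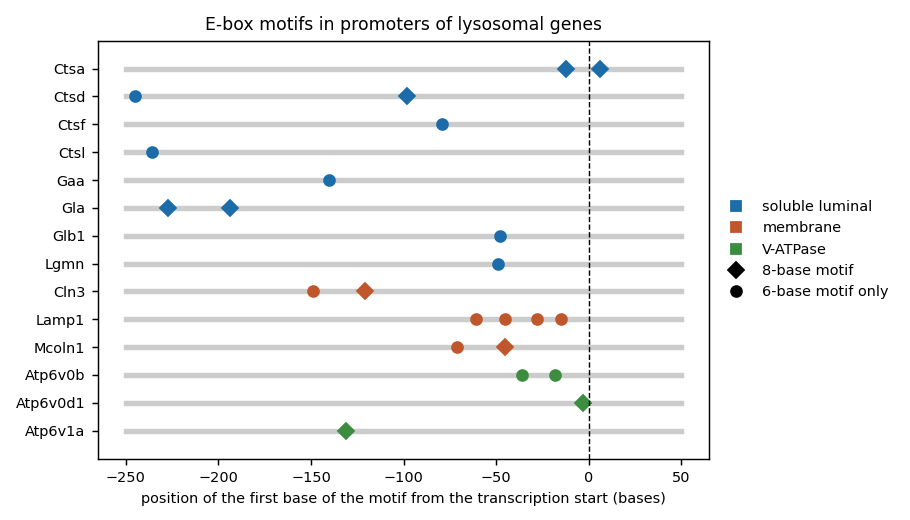
Positions of E-box motifs in the promoter windows of the 14 lysosomal genes that held CACGTG, with distance from the annotated transcription start in bases on the x axis and 1 grey line per window. Diamonds mark motifs that are part of the 8-base form, found in 7 genes, circles mark the 6-base form alone, and colours give the class; the 4 copies of Lamp1 crowd within 61 bases of the start.

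No lysosomal gene passed the test between genotypes under either treatment. With IL-4, 0 of 43 genes had an adjusted p under 0.05, where 0.125% of all genes tested did, and 0 of 43 had an unadjusted p under 0.05, where 2.95% of all genes did. With PBS the counts were likewise 0 and 0 of 43, beside 0.0366% and 1.24% of all genes. The smallest unadjusted p of a lysosomal gene in the authors' deposited tables was 0.0678 with IL-4 (DESeq2, Atp6v1a) and 0.151 with PBS (DESeq2, Atp6v1b2). Every lysosomal gene had an adjusted p of 0.999963 with IL-4 and 0.999994 with PBS there.

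These values also bound the differences, as far as intervals from a normal distribution hold with 2 mice a side. A t distribution would widen every interval, and the counts within 1.5-fold and 2-fold were not repeated with it. With IL-4 the 95% interval of the fold change lay within 1.5-fold in either direction for 40 of 43 genes, beside 78.2% of the genes with a base mean of 1000 or more, and the exceptions were Atp6v1a, Ctsb and Ctsf. With PBS it did so for 17 of 43, beside 32% of such genes. Within 2-fold lay all 43 intervals under each treatment, beside 98.7% with IL-4 and 96.4% with PBS. The median SE of a lysosomal gene was 0.16 with IL-4 and 0.25 with PBS, and with PBS most intervals reached past 1.5-fold. Passing at an adjusted p takes more than an interval that leaves out 0. Map3k14 with PBS, whose values are given above, differed by over 2-fold and did not pass. The size of difference that the test could detect in these 43 genes was not tested, so 0 of 43 does not show that the genes are unchanged.

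**Figure D2:**
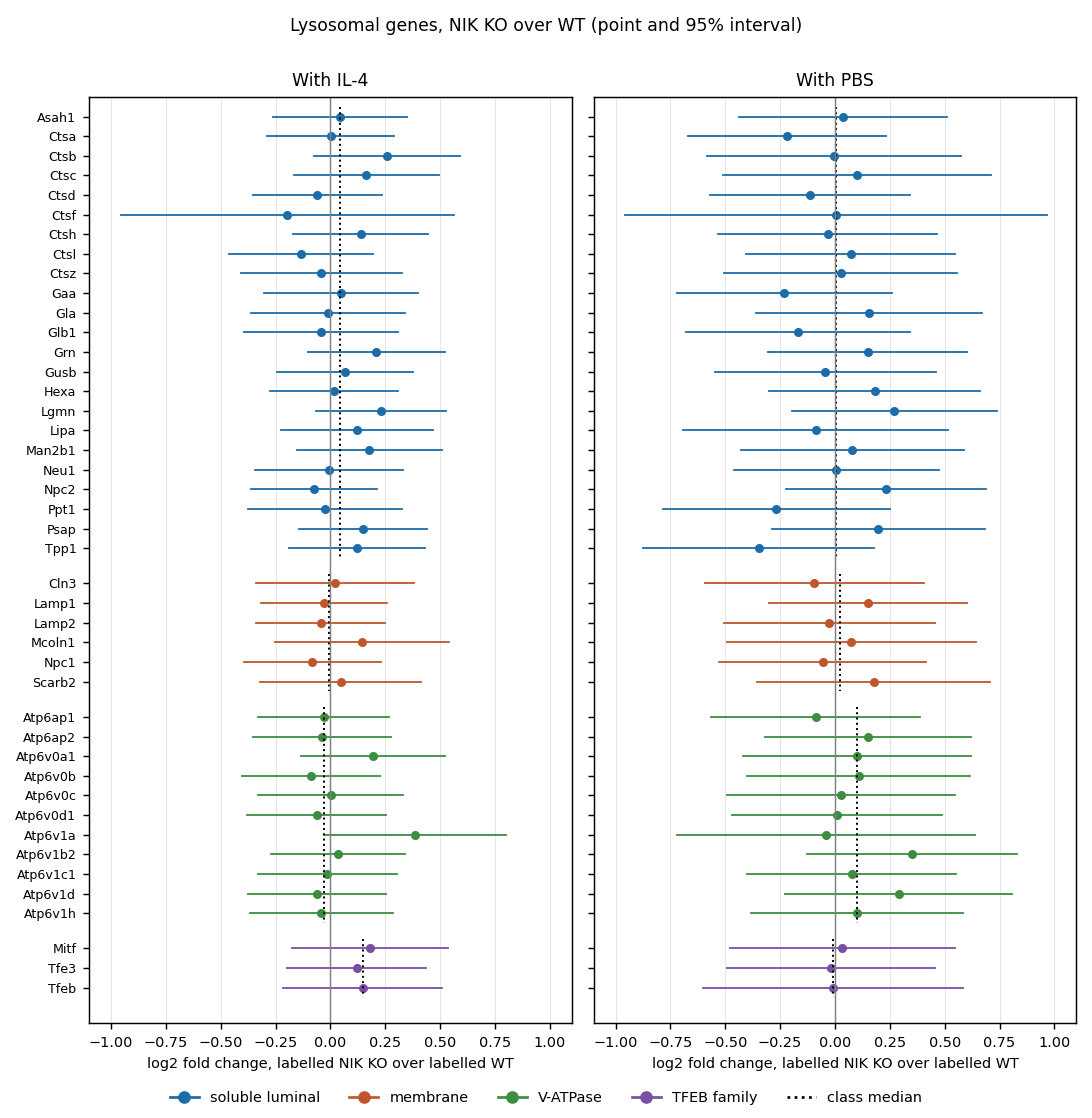
Log2 fold change of each of the 43 lysosomal genes, libraries labelled NIK KO over those labelled WT, with IL-4 (left) and PBS (right), by class. Points are the deposited values, bars their 95% intervals and dotted lines the class medians; all 43 intervals hold 0 in both panels and are shorter with IL-4.

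The lysosomal genes were strongly expressed in these cells. Of the 43, 42 had a base mean of 1000 or more with IL-4 and 40 with PBS, and all had 100 or more. Together they made up 4.73% of all normalized counts in libraries labelled NIK KO against 4.51% in those labelled WT with IL-4, and 4.64% against 4.58% with PBS. Per kilobase of transcript, the scale on which genes can be compared, Psap stood first with IL-4 at a mean over both genotypes of 51026 normalized counts, ahead of Ctsd at 48523, Ctsb at 34771, Ctsz at 19394 and Atp6v0c at 17815. With PBS the same 5 genes led, in the order Ctsd (47676), Psap (37503), Ctsb (30195), Atp6v0c (14223) and Ctsz (13304). The length used is a median over annotated transcripts, not that of the form expressed, and this order depends on it. By base mean with PBS, Ctsl (34657) and Npc2 (23296) stood above Ctsz (19171) and Atp6v0c (14074). Ctsb and Ctsz encode cysteine cathepsins and Atp6v0c the proteolipid of the pump's rotor ring. At the other end, the cysteine cathepsin gene Ctsf had 75.0 per kilobase in libraries labelled NIK KO against 86.02 in those labelled WT with IL-4, and 54.2 against 54.1 with PBS. Levels thus spanned a far wider range between genes than between genotypes. Ctsd and Atp6v0c share 37.1% and 35.2% of their 31-base words with transcripts of other genes, so part of their reads may be assigned elsewhere, and for every other lysosomal gene the share was 8.33% or less.

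**Figure D3:**
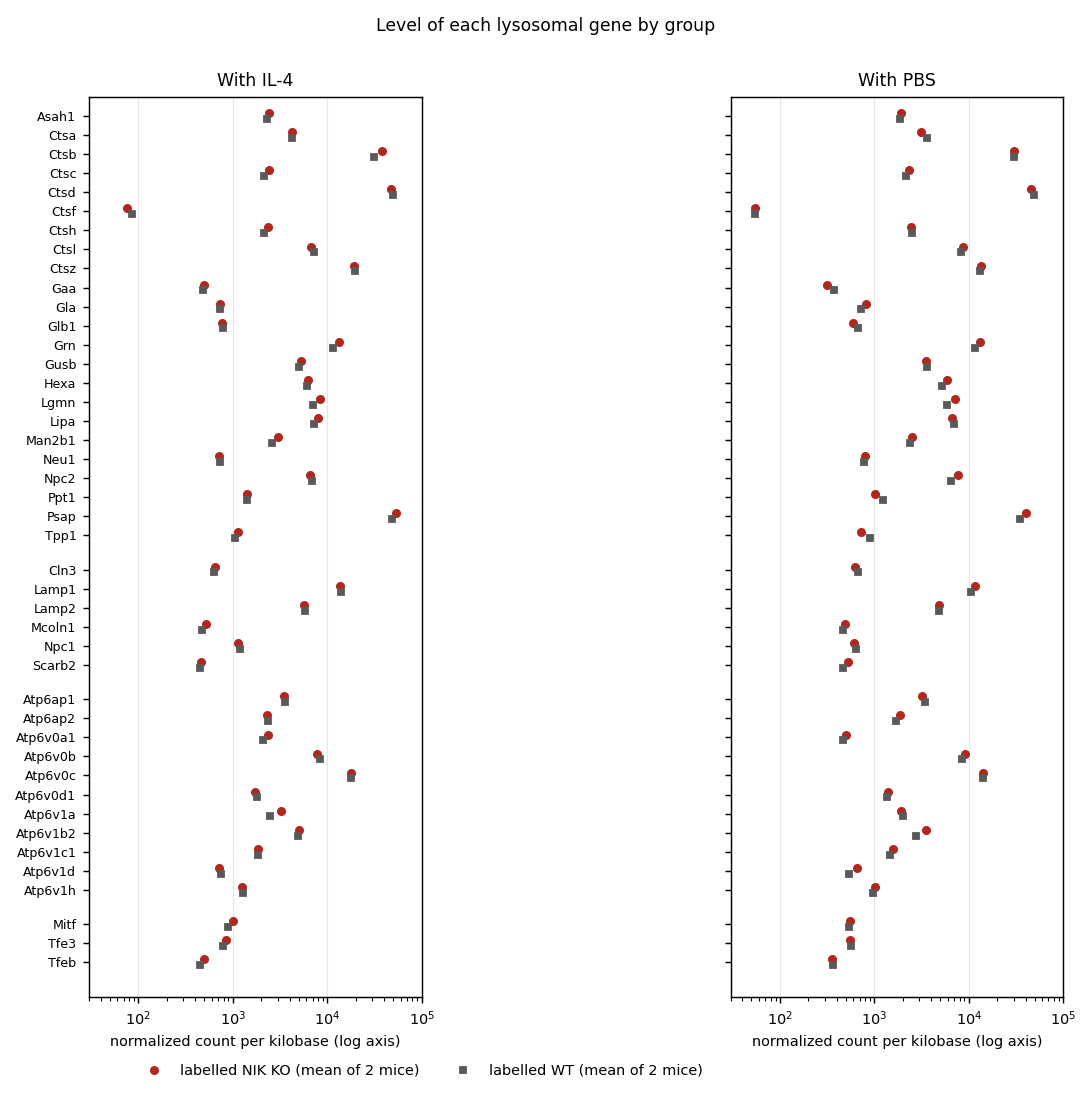
Normalized count per kilobase of transcript (log axis) of each lysosomal gene with IL-4 (left) and PBS (right). Circles are the mean of the 2 libraries labelled NIK KO and squares the mean of the 2 labelled WT; the pairs nearly coincide from Ctsf, at 75.0 and 86.02 with IL-4, up to Psap and Ctsd.

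Among the luminal proteins, the proteases gave both ends of the class. With IL-4, 14 of the 23 luminal genes had a fold change above 0, where 48.9% of all genes and 62.1% of those with a base mean of 1000 or more did, and 9 had one below, with a median of 0.045 and a range of -0.20 to 0.26. The highest by test statistic was Lgmn, the asparaginyl endopeptidase legumain, which cuts other lysosomal proteases to their mature forms, with a mean of 16042 in libraries labelled NIK KO against 13670 in those labelled WT. The authors' deposited table gives it 0.23 ± 0.15 (95% interval -0.06 to 0.53, DESeq2 p = 0.126). Next came Ctsb, a protease abundant in macrophages, at 179639 against 150194, or 0.26 ± 0.17 in the authors' deposited table (-0.08 to 0.59, DESeq2 p = 0.129). After it came Grn, progranulin, at 31085 against 26893, or 0.21 ± 0.16 in the authors' deposited table. None of these 3 intervals left out 0. The lowest was Ctsl, an endoprotease that also processes the invariant chain in some cells, at 27109 in libraries labelled NIK KO against 29753 in those labelled WT (-0.13 ± 0.17 in the authors' deposited table). Ctsf, at 149 against 170, and Npc2, which hands cholesterol to the membrane protein NPC1, at 21851 against 22995, came next, with -0.20 ± 0.39 and -0.07 ± 0.15 in the authors' deposited table. The wide error of Ctsf goes with its low count.

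With PBS the luminal class split almost evenly, with 13 of 23 above 0, beside 48.3% of all genes and 59.1% of those with a base mean of 1000 or more, and 10 below, a median of 0.0066 and a range of -0.35 to 0.27. Lgmn was again the highest, at 13633 in libraries labelled NIK KO against 11299 in those labelled WT (0.27 ± 0.24 in the authors' deposited table, 95% interval -0.20 to 0.74). Npc2 was at 25167 against 21425 (0.23 ± 0.23 in the authors' deposited table) and Psap at 106290 against 92778 (0.20 ± 0.25). Psap encodes the precursor of the saposins, small proteins that lift lipids out to their hydrolases. The lowest was Tpp1, a tripeptidyl peptidase, at 2544 in libraries labelled NIK KO against 3236 in those labelled WT (-0.35 ± 0.27 in the authors' deposited table, -0.87 to 0.18). Ppt1, the thioesterase that removes palmitate from proteins, was at 1219 against 1467 (-0.27 ± 0.26 in the authors' deposited table), and Ctsa at 9646 against 11225 (-0.22 ± 0.23). Defects of Tpp1, Ppt1 and Cln3 in humans each cause a neuronal ceroid lipofuscinosis, a lysosomal storage disease. Of the 8 cathepsins, 4 were above 0 and 4 below under each treatment, with medians of -0.02 with IL-4 and -0.00032 with PBS.

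The makeup of the 8 cathepsins among the 43 genes can be read as shares. Cathepsin genes outside the 43 are left out of the sum, among them the abundant Ctss. Its mean was 60025 in libraries labelled NIK KO against 61369.5 in those labelled WT with IL-4, and 57889 against 51753 with PBS. Per kilobase, Ctsd made up 39.5% of the sum of these 8 in libraries labelled NIK KO against 42.4% in those labelled WT with IL-4. With PBS it made up 43.2% against 45.2%. Ctsb made up 31.5% against 27.1% with IL-4 and 28.4% against 27.6% with PBS. These shares come from group means, rest on the same annotated lengths and carry no test. Of the enzymes that cut sugars and lipids, Gla, Glb1, Gaa, Gusb, Hexa, Neu1, Man2b1, Lipa and Asah1, the authors' deposited tables give values between -0.04 (Glb1) and 0.18 (Man2b1) with IL-4 and between -0.23 (Gaa) and 0.18 (Hexa) with PBS. Gaa, which splits glycogen, was at 1683 in libraries labelled NIK KO against 1626 in those labelled WT with IL-4, and at 1069 against 1256 with PBS. Lipa, the acid lipase that frees cholesterol from its esters, was at 23524 against 21651 with IL-4 and at 19517 against 20756 with PBS. For both, the mean labelled NIK KO was the higher with IL-4 and the lower with PBS, and the SEs of the 9 genes, 0.15 to 0.31, exceed most of the values.

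The 6 membrane genes were split evenly under each treatment. With IL-4 their median was -0.0044, with 3 above 0 and 3 below, and with PBS it was 0.02, again with 3 and 3. Lamp1 and Lamp2, the heavily glycosylated proteins that line the inside of the membrane, were at 30300.3 and 12446 in libraries labelled NIK KO against 30920 and 12840 in those labelled WT with IL-4. The authors' deposited table gives them -0.03 ± 0.15 and -0.045 ± 0.15. With PBS they were at 26270.4 and 10466 against 23677 and 10658, or 0.15 ± 0.23 and -0.03 ± 0.24 in the authors' deposited table. Per kilobase Lamp1 thus made up 70.5% of the pair in libraries labelled NIK KO against 70.2% in those labelled WT with IL-4, and 71.1% against 68.5% with PBS. Mcoln1, the calcium channel of the lysosome, was at 1086 against 983 with IL-4 and 1003 against 953 with PBS (0.14 ± 0.20 and 0.07 ± 0.29 in the authors' deposited tables). Npc1, which moves cholesterol out through the membrane, was at 5929 against 6279 with IL-4 and 3176 against 3304 with PBS (-0.08 ± 0.16 and -0.06 ± 0.24 in the authors' deposited tables). Scarb2, the receptor that carries β-glucocerebrosidase to the lysosome, was at 2167 against 2097 with IL-4 and 2478 against 2193 with PBS (0.05 ± 0.19 and 0.18 ± 0.27 in the authors' deposited tables). Cln3 was at 1568 against 1546 with IL-4 and 1516 against 1619 with PBS (0.02 ± 0.18 and -0.09 ± 0.25 in the authors' deposited tables). With IL-4 all 6 intervals lay within 1.5-fold.

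In the pump, the catalytic subunit had the highest value with IL-4. Atp6v1a (ENSMUSG00000052459), the A subunit that splits ATP, had a mean of 13325 in libraries labelled NIK KO against 10200.1 in those labelled WT, and 0.39 ± 0.21 in the authors' deposited table (95% interval -0.03 to 0.80, DESeq2 p = 0.0678). This was the highest value of the 43 genes with IL-4, and it did not pass. Atp6v0a1, an isoform of the a subunit that guides the pump to its membrane, was at 9227 against 8068 (0.19 ± 0.17 in the authors' deposited table). Atp6v1b2, the B subunit that pairs with A, was at 14271 against 13925 (0.04 ± 0.16). The lowest were Atp6v0b, a ring subunit, at 7622 in libraries labelled NIK KO against 8102 in those labelled WT, Atp6v0d1, which joins ring and stalk, at 2792 against 2914, and Atp6v1d of the central stalk at 2647 against 2758. The authors' deposited table gives these -0.09 ± 0.16, -0.06 ± 0.16 and -0.06 ± 0.16. Of the 11 pump genes 4 were above 0 and 7 below, with a median of -0.03, and the V1 and V0 sectors had medians of -0.01 and -0.03, that of V0 turning to 0.08 with a trend on transcript length subtracted.

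With PBS 9 of the 11 pump genes were above 0, with a median of 0.099, and 59.1% of all genes with a base mean of 1000 or more were above 0 as well. Atp6v1b2 was the highest of the 43 genes, at 9988 in libraries labelled NIK KO against 7835 in those labelled WT (0.35 ± 0.24 in the authors' deposited table, 95% interval -0.13 to 0.83, DESeq2 p = 0.151). Atp6v1d was at 2421 against 1981 (0.29 ± 0.26 in the authors' deposited table) and Atp6ap2, an accessory protein also known as the prorenin receptor, at 4359 against 3931 (0.15 ± 0.24). The lowest was Atp6ap1, the other accessory protein, at 7006 against 7445 (-0.09 ± 0.24 in the authors' deposited table). Atp6v1a, the highest with IL-4, was here at 7867 in libraries labelled NIK KO against 8095 in those labelled WT (-0.04 ± 0.35 in the authors' deposited table), and Atp6v0d1 at 2260.2 against 2245 (0.0096 ± 0.24). The sectors had medians of 0.0998 for the 5 V1 genes and 0.06 for the 4 V0 genes.

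The 3 factors that act on lysosomal genes had values further from 0 with IL-4 than with PBS. Tfeb was at 1157 in libraries labelled NIK KO against 1045 in those labelled WT (0.15 ± 0.19 in the authors' deposited table), Tfe3 at 2697 against 2480.2 (0.12 ± 0.16) and Mitf at 2132 against 1881 (0.18 ± 0.18). With PBS Tfeb was at 830.3 against 836 (-0.0093 ± 0.30 in the authors' deposited table), Tfe3 at 1750 against 1771 (-0.02 ± 0.24) and Mitf at 1165 against 1138 (0.03 ± 0.26). The class median was 0.15 with IL-4 and -0.0093 with PBS, and no interval left out 0. These factors are governed largely by where the protein sits in the cell, which RNA levels do not show.

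Set side by side, the class medians with IL-4 ran from 0.15 for the TFEB family through 0.045 for luminal and -0.0044 for membrane genes to -0.03 for the pump. With PBS the order was another, from 0.099 for the pump through 0.02 for membrane and 0.0066 for luminal genes to -0.0093 for the TFEB family. Over all 43 genes the median was 0.02 with IL-4 and 0.03 with PBS, with 24 and 26 genes above 0. Over all genes tested it was -0.0064 and -0.01, and over those with a base mean of 1000 or more it was 0.05 and 0.04, with 62.1% and 59.1% above 0. The shares of lysosomal genes above 0 are thus near those of other strongly expressed genes. The SD over the 43 values was 0.12 with IL-4 and 0.15 with PBS, smaller than the median SE of a single gene under each treatment, and the differences between classes were not tested.

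Fold changes moved with transcript length, which differs between the classes. With IL-4 the median of genes with a base mean of 100 or more was -0.13 in the shortest 20% of transcripts (up to 1528 bases) and 0.13 in the longest 20%, against -0.03 and 0.02 with PBS. The V0 genes were short, with a median of 1309 bases, against 2654 for the luminal class. With the trend on length subtracted, the medians with IL-4 were 0.03 for luminal, -0.04 for membrane, -0.0068 for pump and 0.14 for TFEB family genes. For the 4 V0 genes the median with IL-4 turned from -0.03 to 0.08 with the trend subtracted. Of the 3 highest luminal genes with IL-4, Ctsb fell from 0.26 to 0.16 and Grn from 0.21 to 0.20, and Lgmn rose from 0.23 to 0.25. Of the 3 highest pump genes, Atp6v1a fell from 0.39 to 0.30, Atp6v0a1 from 0.19 to 0.12 and Atp6v1b2 from 0.04 to 0.0039. The part of length in any single value was not tested.

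Fold changes were also read by the presence of an E-box in the promoter window. With IL-4 the 14 genes with CACGTG had a median of -0.02, with 6 above 0, and the 22 without it had 0.06, with 14 above 0. With PBS the medians were 0.007 (8 of 14 above 0) and 0.03 (14 of 22). No difference between these groups was tested.

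Whether the genotypes differed by another amount with IL-4 than with PBS was asked of each gene by the difference of its fold changes. Of the 43 genes, 0 passed at an adjusted p under 0.05 (0.0149% of all genes did) and 0 had an unadjusted p under 0.05 (0.867% of all genes did), by a z test across all genes that takes the errors of the tables as independent although they share mice. Of the differences 22 were above 0, as were 49.8% of those of all genes, and 21 below, with a median of 0.01 and a median SE of 0.30. The highest were Tpp1 at 0.47 ± 0.31 (95% interval -0.14 to 1.08), Atp6v1a at 0.43 ± 0.41 (-0.37 to 1.22) and Gaa at 0.28 ± 0.31. The lowest were Atp6v1d at -0.35 ± 0.31 (-0.96 to 0.26), Atp6v1b2 at -0.31 ± 0.29 and Npc2 at -0.31 ± 0.27. All 43 intervals held 0, and a difference of up to 2-fold remained within the intervals of Tpp1, Atp6v1a and Ctsf (-1.43 to 1.02 for Ctsf). The signs were mixed: 13 genes were above 0 under both treatments, 6 below 0 under both, 13 below 0 with IL-4 but above it with PBS, and 11 above 0 with IL-4 but below it with PBS. Among pump genes 6 of 11 were below 0 with IL-4 and above it with PBS, and the median difference of the 11 was -0.09.

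The levels with IL-4 and with PBS can be set side by side only as a description. The tables were normalized separately and hold no test of IL-4 against PBS, so each ratio of means is read against the median gene. Among 9148 genes with a base mean of 100 or more in both tables, the median ratio of IL-4 over PBS was 1.21 in libraries labelled NIK KO and 1.20 in those labelled WT. The lysosomal genes had medians of 1.22 and 1.20. For a check of the treatment, Mrc1, the mannose receptor that IL-4 is known to raise, had ratios of 17.5 and 17.1.

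Atp6v0a1 (ENSMUSG00000019302) stood far above the other lysosomal genes. In libraries labelled NIK KO its mean was 9227 with IL-4 against 1943 with PBS, a ratio of 4.75, and in those labelled WT it was 8068 against 1814, a ratio of 4.45. This put it at percentile 99.6 of those genes. Npc1 followed at 5929 against 3176 in libraries labelled NIK KO (1.87) and 6279 against 3304 in those labelled WT (1.90), and Mitf at 2132 against 1165 (1.83) and 1881 against 1138 (1.65). All 3 genes of the TFEB family lay above the median gene in each genotype, with Tfe3 at 2697 against 1750 and at 2480.2 against 1771, and Tfeb at 1157 against 830.3 and at 1045 against 836. At the low end, Ctsl had 27109 with IL-4 against 35505 with PBS in libraries labelled NIK KO (0.764) and 29753 against 33808 in those labelled WT (0.880). The ratios of the 43 genes ranged from 0.764 to 4.75 in libraries labelled NIK KO and from 0.855 to 4.45 in those labelled WT.

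**Figure D4:**
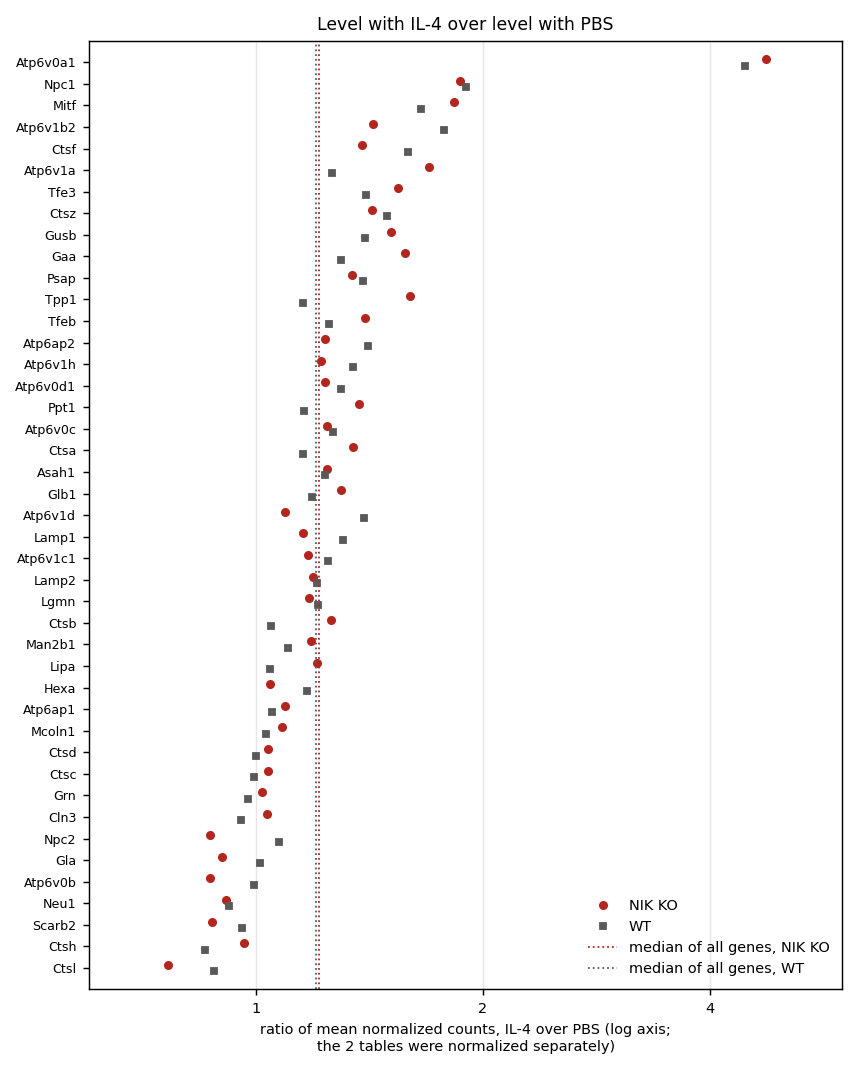
Ratio of the mean normalized count with IL-4 over that with PBS (log axis) for each lysosomal gene, ordered by the ratio of base means. Circles are libraries labelled NIK KO, squares those labelled WT, and dotted lines the medians over 9148 genes (1.21 and 1.20); Atp6v0a1 stands alone at 4.75 and 4.45.

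With IL-4, Atp6v0a1 made up a larger share of the RNA for the pump's a subunits. Each pump holds a single a subunit, and the makeup of the pumps themselves was not measured. Per kilobase, Atp6v0a1 made up 36.4% of the 3 a subunits listed in libraries labelled NIK KO and 34.5% in those labelled WT with IL-4, against 10.7% and 9.93% with PBS. Tcirg1, the a3 isoform that osteoclasts need for bone resorption, made up 59.6% and 61.9% with IL-4 against 85.0% and 85.7% with PBS. Its own level lay below the median gene's ratio, at 3881 per kilobase with IL-4 against 3976 with PBS in libraries labelled NIK KO and 3722 against 4024 in those labelled WT (ratios 0.976 and 0.925). A like pattern was seen in the d subunits, where Atp6v0d2 made up 30.4% of the pair in libraries labelled NIK KO and 28.6% in those labelled WT with IL-4, against 12.3% and 14.8% with PBS, the rest being Atp6v0d1. Of the 4 factors of the TFEB family, Tfec, which is not among the 43 genes, made up 22.9% and 28.1% with IL-4 against 14.7% and 15.5% with PBS. Mitf made up 32.8% in libraries labelled NIK KO and 30.0% in those labelled WT with IL-4, against 32.0% and 31.01% with PBS. Among these families the widest gap in share between genotypes was that of Tfec with IL-4, and none of the shares carries a test.

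**Figure D5:**
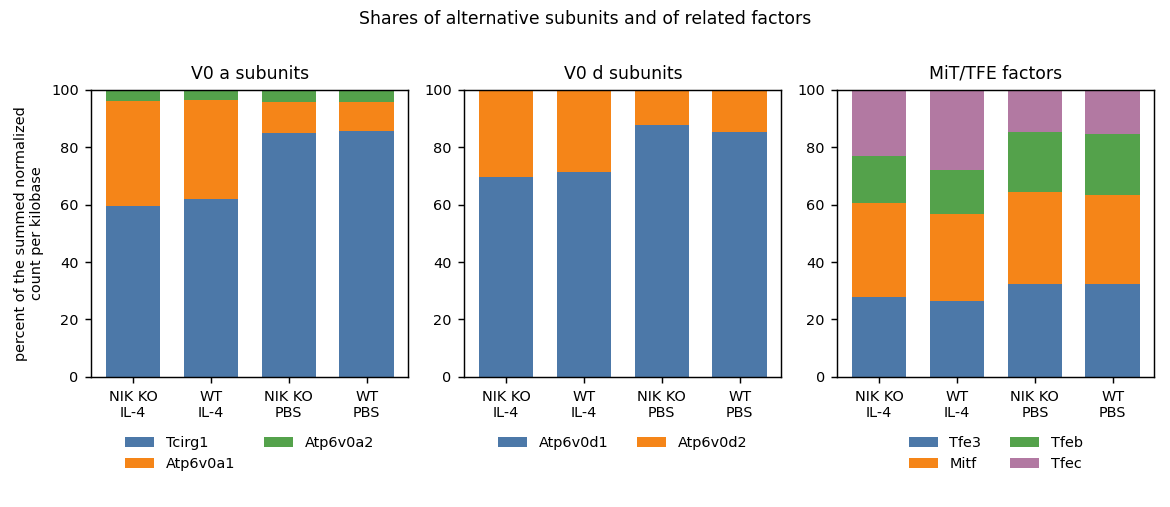
Share of each gene in the summed normalized count per kilobase of the V0 a subunits, the V0 d subunits and the TFEB family (MiT/TFE factors), in the 4 groups. Bars are group means with no error; Atp6v0a1 takes 36.4% and 34.5% of the a subunits with IL-4 against 10.7% and 9.93% with PBS.

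Other lysosomal genes, from lists of hydrolases, membrane proteins, pump subunits, nutrient-sensing and sorting genes, were read beside the 43. Of 119 listed in both tables, 0 had an adjusted p under 0.05 under either treatment. With an unadjusted p under 0.05 there were 3 with IL-4 and 0 with PBS, where 2.95% and 1.24% of all genes had one, so 3 of 119 is no more than the background. The 3 were Laptm5, a lysosomal membrane protein of blood cells, at 24458 in libraries labelled NIK KO against 18120.2 in those labelled WT, the nucleoside transporter Slc29a3 at 1402 against 1047, and the sorting adaptor Gga3 at 1173 against 864. The authors' deposited table gives them 0.43 ± 0.18, 0.42 ± 0.19 and 0.44 ± 0.21 (DESeq2 p = 0.0171, 0.0271 and 0.0339). The medians were 0.03 with IL-4 (67 of 119 above 0) and -0.03 with PBS (49 of 119). The 15 other pump genes had medians of -0.08 with IL-4 and -0.05 with PBS, with 6 above 0 under each treatment. The lowest of them with IL-4 were Atp6v0e and Atp6v1f, at -0.26 ± 0.18 and -0.25 ± 0.17 in the authors' deposited table. Among membrane genes Hgsnat, which acetylates heparan sulfate for its breakdown, was the lowest under each treatment, at 1078 against 1391 with IL-4 and 922 against 1309 with PBS (-0.37 ± 0.21 and -0.50 ± 0.26 in the authors' deposited tables, DESeq2 p = 0.0739 and 0.0533). Of the 125 genes on these lists, 98 had a promoter window, and CACGTG stood in that of 22 (22.4%), against the 8.09% and 12.7% given above.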

How the data were processed

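The authors deposited 1 table of per-gene results for each treatment. Per the submitters' processing notes, Salmon 1.4.0, DESeq2 1.32.0 and build GRCm39 were used (further settings: not given in the sources used here). The base mean deposited for each gene is a signal that averages size-factor-normalized counts over 4 libraries. Fold changes and their errors were deposited as log2 values. The authors' Wald statistic is a score, and the deposited p-values and adjusted p-values are the authors', from DESeq2. The direction, NIK KO over WT, follows the IL-4 table's name and was assumed for the PBS table too. In both, Kpna2 and Gm10184, the strongest calls, had the same sign.

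Group means were recovered as the base mean split by the fold change. Intervals are normal, 95%. The difference between treatments was tested by a two-sided z test with Benjamini-Hochberg adjustment over 13384 genes. A gene was called at an adjusted p under 0.05. Lengths are medians of protein-coding transcripts of GENCODE M21 (GRCm38), and the share of 31-base words was read from the longest. The tools were Python 3.11.15, matplotlib 3.10.9, statsmodels 0.14.6, scipy 1.17.1, pandas 2.3.3 and numpy 2.4.6, and the steps were tested on simulated data. The depth of each library is unknown, and the deposited standard errors give the precision. The authors gave no adjusted p to 551 genes with IL-4, none of them among the 43.

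Values were named for the 3 highest and 3 lowest genes of a class by Wald statistic in each table (all of a class of 6 or fewer), the 5 most abundant genes per kilobase and Map3k14; of other lysosomal lists, for the 2 highest and 2 lowest, of which a part is printed. Laptm5, Slc29a3 and Gga3 were added for their unadjusted p, and genes named by their level with IL-4 over PBS, or in pairs and families, were chosen after their values were seen. The members and lists were chosen with earlier results of these data known.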

Additional observations from a re-analysis of the deposited data

How the results depend on the processing

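Counts of lysosomal genes past an adjusted or an unadjusted p under 0.05 were 0 in both tables and in the difference. They were 0 too with the median subtracted and with the trend on transcript length subtracted. A t distribution can only raise a p, all 43 genes have a base mean of 100 or more and none has over 50% shared words, so those settings, and adjustment over all genes with a p-value, could add no unadjusted call, and 0 there says nothing about stability. Adjusted counts were 0 under each as well. The exception to 0 was the difference with errors correlated at 0.5, where 1 gene, Tpp1, had an unadjusted p of 0.0454 (z test across all genes, adjusted p = 1.00). Class medians moved by -0.03 to 0.02 with the length trend subtracted and by at most 0.01 with the median subtracted, with no change of sign in the 4 classes or over all 43 genes, but that of the V0 sector with IL-4 turned from -0.03 to 0.08 with the length trend subtracted. Weighted means moved them by up to 0.04 and turned 2 signs, and the other genes of a class in their place turned 5. Signs of single genes with IL-4 turned with the length trend subtracted for Atp6v0b (0.050), Ctsa (-0.041), Ctsz (0.025), Gaa (-0.0027), Ppt1 (0.075) and Scarb2 (-0.054), and with the median subtracted for Atp6v0c (-0.0099) and Ctsa (-0.011). Each of these values lies within 1 SE of 0. No replicate could be left out, because the tables hold no value per library. No paired analysis was possible because the genotypes share no mouse and the tables hold no value per library.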

Other observations

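Outside the 43 genes, some lysosomal genes also had ratios of IL-4 over PBS far from the median gene's, though less far than Atp6v0a1, in libraries of either label. Atp6v0d2, the d subunit of the pump that osteoclasts use, had 1904 with IL-4 against 493 with PBS in libraries labelled NIK KO (ratio 3.86) and 1823 against 608 in those labelled WT (2.997). Tfec had ratios of 2.77 and 3.09, and Pla2g15, the lysosomal phospholipase A2, of 2.76 and 2.88. Toward the other end, Dmxl2 had ratios of 0.598 and 0.654. Sgsh, the heparan N-sulfatase, had 309 with IL-4 against 448 with PBS in libraries labelled NIK KO (0.690). In those labelled WT it had 275 against 440.1 (0.624). Sgsh was noisy, with an SE of 0.95 for its difference of fold changes, where the median of the 119 genes was 0.33. These ratios come from tables normalized separately, carry no test and were chosen after their values were seen.

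Grn and Atp6v0a1 lie on chromosome 11 at 0.837 and 2.26 Mb from Map3k14 (GRCm38), the only genes of the 43 within 10 Mb of it. Both were among the 13 of the 43 genes with means higher in libraries labelled NIK KO with IL-4 and with PBS. Neither passed the test under either treatment, and the part of their position was not tested. With PBS Grn was at 30545 against 27562 and Atp6v0a1 at 1943 against 1814.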
